A study of Mus musculus with 2 samples.

Results

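The Gata2 and Mitf loci of mouse mast cells were described by their 5-hydroxymethylcytosine (5hmC) peaks, with and without the enzyme TET2. Every deposited peak was taken whose summit, its position of highest coverage, lay in a window of 250 kb around Gata2 (chromosome 6, 88000000 to 88250000, mm9 build) or of 350 kb around Mitf (chromosome 6, 97700000 to 98050000). These were 92 of the 38228 peaks in 4 lists, 35 at Gata2 and 57 at Mitf. The genes themselves span about 88.14 to 88.16 Mb and 97.76 to 97.97 Mb. These spans are rounded to 10 kb, so distances from a gene start below share that error, and exons, introns and promoters were not placed in mm9.

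The cells were mast cells differentiated from bone marrow in interleukin-3, a primary culture, of C57BL/6 mice of 6 to 12 weeks. One group was Tet2+/+ and the other Tet2-/-, whose allele the labels do not describe further, and each had 1 library. Both were sorted after 4 weeks for Kit, the receptor of stem cell factor, and FcεRIα, a chain of the IgE receptor, since Tet2-/- marrow matured less fully. The labels name 2 independent animals per genotype without stating how they relate to the 1 library. Peaks are of 2 kinds: a library's own peaks, and direct-comparison peaks, called in a library with the other one as control. No replicate exists, so no p-value is given, and all intervals cover counting error only. The Tet2-/- library was taken to be 1.18 times as deep, as read totals are not known. This is the ratio of its background of 1.72 expected fragments per position to the 1.46 in Tet2+/+.

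TET enzymes oxidise 5-methylcytosine, which in mammals lies mostly at CpG dinucleotides, to 5hmC, a step towards loss of methylation that is frequent at enhancers and in the bodies of active genes. GATA2 is a zinc finger transcription factor that blood stem cells, progenitors and mast cells need, and it is known to be controlled by enhancers far upstream and inside its gene. MITF is a basic helix-loop-helix leucine zipper factor of mast cells, melanocytes and osteoclasts, and its gene has several alternative first exons spread over a long stretch. In mast cells both factors act on genes of the lineage such as Kit.

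The DNA before the starts of both genes is shown for its content of CpG, the dinucleotide at which most 5-methylcytosine can lie. Methylation of these bases was not measured here. RefSeq lists 2 starts for Gata2 and 3 for Mitf in the GRCm38.p6 build, all on the plus strand. Their coordinates are of that build and cannot be set against the mm9 positions of the peaks. The 250 bases before the second Gata2 start (chr6:88198414-88198663) hold 24 CpG, and 12.0% of the 32851 promoters in the same table hold as many. The first Mitf start (chr6:97806808-97807057) has 15, reached by 27.3% of promoters. The third Mitf start (chr6:97991533-97991782), 184.7 kb farther downstream, has 3, which 71.0% of promoters reach. They are printed 5′ to 3′ with each CpG in capitals.
Gata2, second start: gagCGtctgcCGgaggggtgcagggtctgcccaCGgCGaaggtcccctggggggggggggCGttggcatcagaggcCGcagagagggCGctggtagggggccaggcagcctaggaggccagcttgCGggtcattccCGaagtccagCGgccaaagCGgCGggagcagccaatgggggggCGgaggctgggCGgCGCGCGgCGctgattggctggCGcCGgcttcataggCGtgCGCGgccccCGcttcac
Mitf, first start: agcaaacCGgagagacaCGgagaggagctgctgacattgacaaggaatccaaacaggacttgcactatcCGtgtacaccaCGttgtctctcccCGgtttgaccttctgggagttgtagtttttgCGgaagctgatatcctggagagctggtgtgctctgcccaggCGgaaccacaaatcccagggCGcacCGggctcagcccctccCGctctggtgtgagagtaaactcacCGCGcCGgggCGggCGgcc
Mitf, most downstream start: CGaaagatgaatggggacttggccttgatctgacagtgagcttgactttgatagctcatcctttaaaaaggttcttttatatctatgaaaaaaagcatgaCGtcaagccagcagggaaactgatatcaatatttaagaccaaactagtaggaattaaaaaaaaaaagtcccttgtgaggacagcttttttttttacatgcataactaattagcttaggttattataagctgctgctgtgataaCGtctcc
The other starts hold 22 CpG (Gata2, first) and 4 (Mitf, second). The range from 24 to 3 shows that the Gata2 starts are CpG rich and that the Mitf starts run from CpG rich to CpG poor.

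The first question was how many 5hmC peaks each locus carried, beside chromosome 6 as a whole. Gata2 had 16 own peaks in Tet2+/+ and 14 in Tet2-/-. Mitf had 25 and 27. Both loci were thus dense in 5hmC peaks in both genotypes, and the 2 libraries differed at each locus by 2 peaks. Gata2 carried 6.4 peaks per 100 kb in Tet2+/+, where chromosome 6 averaged 0.782, a ratio of 8.19 (95% Poisson interval 4.68 to 13.3). In Tet2-/- it carried 5.60 per 100 kb against 0.697, a ratio of 8.03 (4.39 to 13.5). Mitf carried 7.14 per 100 kb in Tet2+/+, 9.14 times the mean (5.91 to 13.5). In Tet2-/- it carried 7.71 per 100 kb, 11.1 times the mean (7.29 to 16.1). The genotypes' intervals overlap at both loci. Peaks are spread unevenly over the chromosome, so its mean is a low bar: against stretches of 50 kb that hold any peak, the ratios were 2.24 and 2.19 at Gata2 and 2.50 and 3.02 at Mitf, for Tet2+/+ and Tet2-/-.

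Chromosome 6 was also divided into windows of the size of each locus, laid out from the locus itself. Of 583 windows of 250 kb, 292 had no Tet2+/+ peak, and 2 held 16 or more, the Gata2 window among them. In Tet2-/- 3 of the 583 windows held 14 or more. The fullest of these windows, 97750000 to 98000000, lay over Mitf, with 21 Tet2+/+ and 25 Tet2-/- peaks. Of 416 windows of 350 kb, the Mitf window was the fullest in both libraries, and the next fullest held 17 peaks in each. These ranks describe these layouts of windows, which cut groups of peaks at arbitrary points. The layout from Gata2 cuts the Mitf locus too, and that from Mitf keeps it whole.

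**Figure D1:**
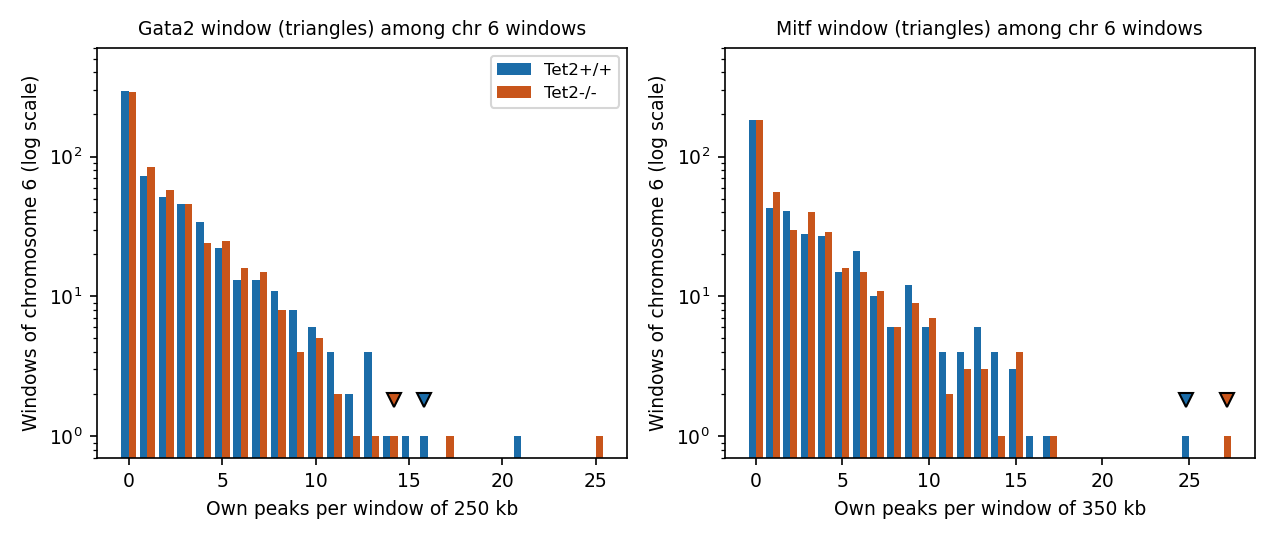
Number of windows of chromosome 6 (log scale) by the number of own peaks they hold, in Tet2+/+ (blue) and Tet2-/- (orange), for windows of 250 kb (left) and 350 kb (right). Triangles mark the Gata2 window at 16 and 14 peaks and the Mitf window at 25 and 27, the far right of its panel, where the next fullest window holds 17.

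The peaks of both loci were close in fold enrichment to those of the whole lists. Their median fragments, −log10 q and width were higher. The authors' fold enrichment, a peak's height over its own neighbourhood, had a median of 5.55 at Gata2 and 5.10 at Mitf in Tet2+/+, and 5.48 in the whole list. In Tet2-/- the median was 5.77 at Gata2, 5.54 at Mitf and 5.51 in the whole list. The median summit had 22 fragments at Gata2 and 18 at Mitf in Tet2+/+, where the whole list had 17, and 20 and 24 in Tet2-/-, where it had 18. Median −log10 q was 9.15 at Gata2 and 7.39 at Mitf in Tet2+/+ against 6.91 in the list, and 8.35 and 8.55 in Tet2-/- against 7.13. Tet2+/+ peaks were 405 bp wide at Gata2 and 399 bp at Mitf (medians) against 328 bp in the list, and Tet2-/- peaks 381 and 346 bp against 318. The local expectation against which a peak had to rise was higher than usual, with a median of 3.10 fragments at Gata2 and 2.92 at Mitf in Tet2+/+ against 2.14 in the list, and of 2.79 and 3.26 in Tet2-/- against 2.30. Neighbouring Tet2+/+ summits lay 7.10 kb apart at Gata2 and 10.0 kb at Mitf (medians), against 31.1 kb in the list.

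Peak density was higher inside the gene span than in the flanks at Mitf, where most peaks lay inside the span. Most Gata2 peaks lay outside the span, and the 2 per library inside it are too few to compare densities. At Mitf, 20 of 25 Tet2+/+ peaks and 24 of 27 Tet2-/- peaks had their summit inside the span of the gene, which makes up 210 of the 350 kb. That is 9.52 and 11.4 peaks per 100 kb inside, against 3.57 and 2.14 in the flanks. At Gata2, 2 peaks of each library lay inside the span of 20 kb, a density of 10.0 per 100 kb that rests on these 2, against 6.09 in the flanks in Tet2+/+ and 5.22 in Tet2-/-. There, 9 Tet2+/+ and 7 Tet2-/- peaks lay upstream and 5 of each downstream, so most of the Gata2 peaks are far from the gene, in a window that other genes share. In GRCm38.p6 the protein-coding neighbours of Gata2 are Rab7 and Rpn1 on the lower side and Dnajb8 and Eefsec on the higher side, while Mitf has Frmd4b before it and Gm765 after it. Both libraries left a stretch of 52.1 kb without a peak, from 88158146 at the end of the Gata2 span to 88210247 downstream of it.

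**Figure D2:**
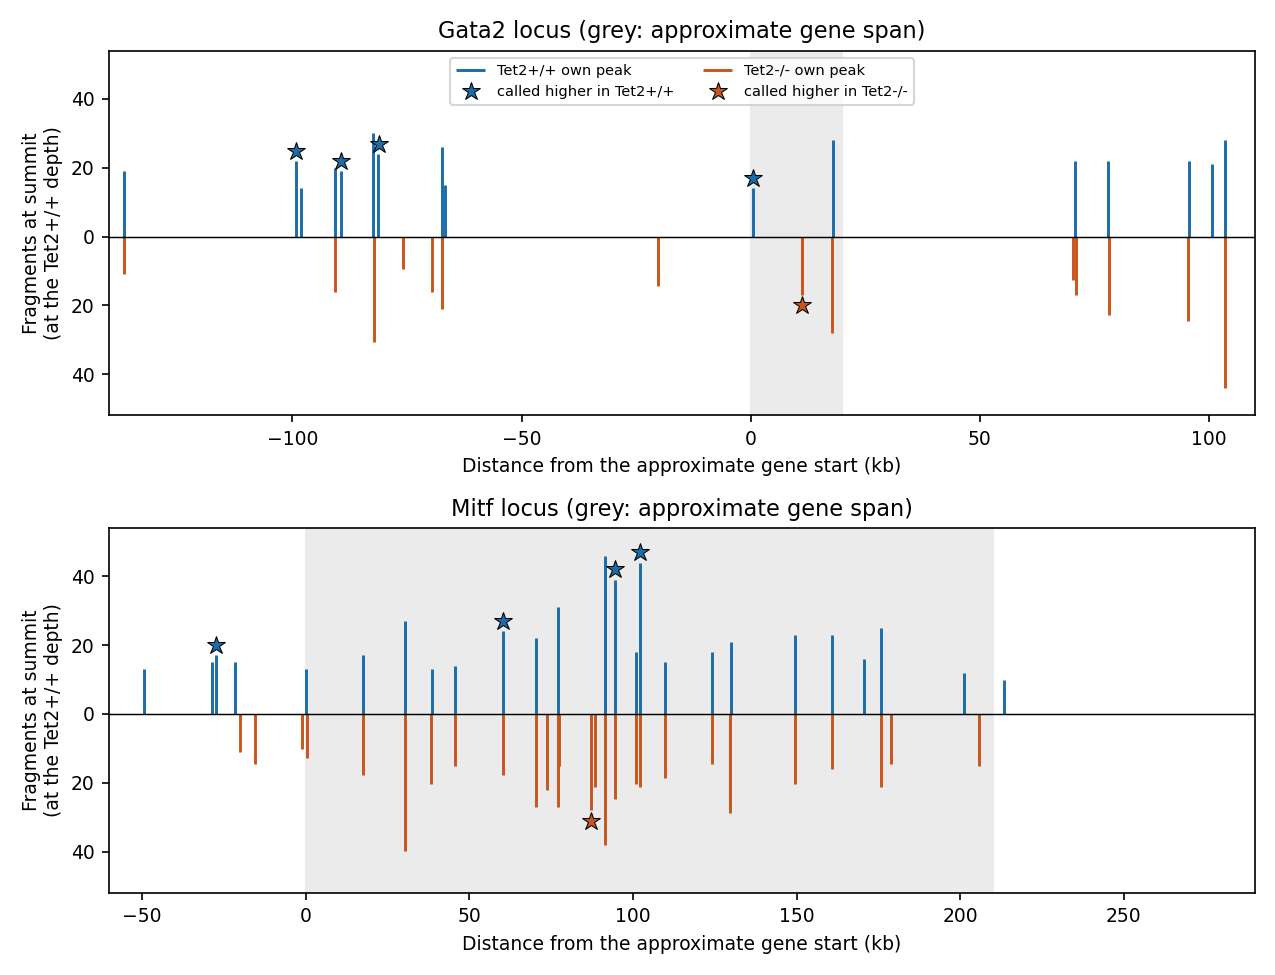
Fragments at the summit of each own peak, scaled to the Tet2+/+ depth, for Tet2+/+ (upward, blue) and Tet2-/- (downward, orange), by distance in kb from the approximate gene start, with the gene span in grey and stars at direct-comparison peaks. Peaks fill the Mitf span in both libraries, while at Gata2 most lie between 50 and 100 kb to either side of the gene.

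The second question was which peaks the genotypes had in common. At Gata2, 9 of 16 Tet2+/+ peaks (56.25%, 95% exact Clopper-Pearson interval 29.9 to 80.2) overlapped a called Tet2-/- peak by at least 1 bp, where 61.2% of the whole Tet2+/+ list did. At Mitf it was 18 of 25 (72.0%, 50.6 to 87.9). From the other side, 10 of 14 Tet2-/- peaks at Gata2 (71.4%, 41.9 to 91.6) and 19 of 27 at Mitf (70.4%, 49.8 to 86.2) overlapped a Tet2+/+ peak, against 65.8% of the whole Tet2-/- list. Every interval includes the share of its list, so a departure of either locus from its list was not detectable with this few peaks. Joined into sites, Gata2 had 20, of which 9 were called in both, 7 in Tet2+/+ alone and 4 in Tet2-/- alone. Mitf had 33 sites, 18 in both, 7 in Tet2+/+ alone and 8 in Tet2-/- alone.

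At Mitf the common peaks lay inside the gene. There 18 of 20 Tet2+/+ peaks (90.0%, 68.3 to 98.8) had a partner, against 61.2% of the whole Tet2+/+ list. Of the Tet2-/- peaks there, 19 of 24 had a partner (79.2%, 57.8 to 92.9), and this interval includes the 65.8% of the whole Tet2-/- list. Outside the span none did, 0 of 5 in Tet2+/+, which allows a share of up to 60.0% at 3 counts (exact upper limit 52.2%), and 0 of 3 in Tet2-/- (exact upper limit 70.8%). The peaks outside had 10 to 17 fragments in Tet2+/+ and 12 to 17 in Tet2-/-. Inside, they had 12 to 46 (median 21.5) and 15 to 47 (median 24). Not all peaks outside were weak by fold: the Tet2+/+ peak at 97732374 to 97732666 had a fold of 7.09 and a −log10 q of 9.54. At Gata2, 4 of 5 Tet2+/+ and all 5 Tet2-/- peaks downstream of the gene had a partner. Upstream 4 of 9 and 4 of 7 had one, and in the span 1 of 2 in each library. The exact intervals of the shares upstream (13.7 to 78.8% in Tet2+/+) and downstream (28.4 to 99.5%) overlap. In the whole Tet2+/+ list, too, peaks without a partner had fewer fragments, a median of 14 against 19.

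The third question was where the authors' direct comparison placed one genotype above the other. Each locus had 4 regions higher in Tet2+/+ and 1 higher in Tet2-/-. At Gata2, 4 of 16 Tet2+/+ own peaks (25.0%, 7.27 to 52.4) overlapped a region called higher in Tet2+/+, and at Mitf 4 of 25 did (16.0%, 4.54 to 36.1), against 13.8% of the whole list. Of the Tet2-/- own peaks, 1 of 14 at Gata2 (7.14%, 0.181 to 33.9) and 1 of 27 at Mitf (3.70%, 0.0937 to 19.0) overlapped a region called higher in Tet2-/-, against 2.77% of the whole list. These shares are near the background within their counting error. The regions were then set against the peaks of the other library. None of the 4 Gata2 regions overlapped a Tet2-/- peak, while 3 of the 4 at Mitf did, and in the whole list 36.9% did. The difference between the loci was not tested.

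At Gata2, 3 of the 4 regions higher in Tet2+/+ stood together, 81 to 99 kb upstream of the gene start. The one at 88058607 to 88058867 had 24 Tet2+/+ fragments at its summit (95% Poisson interval 15.4 to 35.7), against 3.56 that the Tet2-/- control led the caller to expect. Its deposited fold was 5.48 and its −log10 q 7.88, above 86.7% of the list. The one at 88040648 to 88040974 had 22 fragments against 3.39 expected, a fold of 5.24 and a −log10 q of 6.83. The one at 88050481 to 88050899 had 19 against 4.24, a fold of 3.82 and a −log10 q of 3.54. All 3 lay between peaks that both libraries shared, so this stretch held kept and lowered sites side by side. In the same 50 kb, from 100 to 50 kb upstream, Tet2+/+ had 8 own peaks and Tet2-/- 5, of which 3 each had a partner.

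Inside the Gata2 span the libraries differed at 2 sites and shared 1. Close to the approximate gene start, Tet2+/+ had a peak at 88140376 to 88140871 with 14 fragments, and no Tet2-/- peak overlapped it. Its direct-comparison region, 88140541 to 88140740, was a weak call with a fold of 3.42 against 3.39 expected fragments and a −log10 q of 1.94, above only 6.46% of the list. About 11 kb into the span the order was the opposite. Tet2-/- had a peak at 88151098 to 88151340 with 20 fragments (17.0 at the Tet2+/+ depth, 2.66 expected), called higher in Tet2-/- with a fold of 4.91 and a −log10 q of 3.56, and no Tet2+/+ peak overlapped it. At the end of the span both had a peak, 28 fragments in Tet2+/+ at 88157579 to 88158122 and 33 in Tet2-/- (28.0 at the Tet2+/+ depth) at 88157426 to 88158146, with summits over 100 bp apart.

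The strongest Gata2 peak of both libraries by −log10 q lay 104 kb downstream of the gene start. It had 28 fragments in Tet2+/+ (fold 7.18) at 88243278 to 88243796 and 52 in Tet2-/- (fold 11.7, −log10 q 37.1, above 98.5% of the list) at 88243383 to 88243823. Scaled by the depth ratio used, Tet2-/- coverage was 1.57 times that of Tet2+/+ (95% interval 0.976 to 2.59). At this scaling the interval includes no difference, and no region was called higher there. The second strongest, 82 kb upstream, had 30 and 36 fragments, a Tet2+/+ to Tet2-/- ratio of 0.983 after scaling (0.585 to 1.64). The third, 96 kb downstream, had 22 fragments in Tet2+/+ and 29 in Tet2-/-, 24.6 at the Tet2+/+ depth. By −log10 q, the 3 strongest Gata2 sites were thus the same in both libraries, and none was called different. The order by fragments differs, as the site at the end of the gene span had 28 and 33, above the third. The most distant pair, 137 kb upstream, had 19 and 13 fragments and the highest ratio of the locus, 1.72 (0.808 to 3.80). The remaining pairs, 91 and 67 kb upstream, had 20 and 19 fragments (1.24, 0.629 to 2.46) and 26 and 25 (1.23, 0.681 to 2.21). At 71 kb downstream a Tet2+/+ peak of 22 fragments faced 2 Tet2-/- peaks of 15 and 20, and at 78 kb the libraries had 22 and 27.

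Further Gata2 peaks lay in 1 library alone. In Tet2-/- these were 11 fragments at 88063942 to 88064165, 19 at 88070080 to 88070543 and 17 at 88119539 to 88119935. In Tet2+/+ they were 14 at 88041854 to 88042053, 15 at 88073113 to 88073395 and 21 at 88240551 to 88240854. No direct comparison called any of these 6. They are differences between lists, and the coverage of the other library at these sites was not measured. The lowest summit called on its own anywhere had 8 fragments in each library.

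Inside Mitf the highest coverage of Tet2+/+ cells stood in the middle of the gene, with 46 fragments at 97851125 to 97851637. The strongest Tet2+/+ peak by fold and −log10 q, at 97861819 to 97862320, had 44 fragments (95% Poisson interval 32.0 to 59.1). Its fold was 9.30 and its −log10 q 26.7, above 97.5% of the list. Its Tet2-/- partner at 97861913 to 97862274 had 25 fragments, 21.2 at the Tet2+/+ depth, so coverage was 2.08 times as high in Tet2+/+ (1.24 to 3.54). At the depth ratio used, this was the only one of 18 pairs at the 2 loci whose interval left out 1. The interval of the Gata2 pair 104 kb downstream ended at 1.02, and that of the Mitf pair 30 kb in at 1.11. Both limits lie below 1.14, the median ratio of all pairs. With that median removed, both intervals would lie below 1, higher in Tet2-/-. The direct-comparison region of the strongest Tet2+/+ peak, 97861920 to 97862241, had 44 fragments against 14.4 expected, a fold of 2.92 and a −log10 q of 5.51. Tet2-/- cells kept a called peak there, at 0.482 of the Tet2+/+ coverage.

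A second region higher in Tet2+/+ lay shortly before it, at 97854442 to 97854643. It had 39 Tet2+/+ fragments against 12.7 expected, a fold of 2.92 and a −log10 q of 4.76. The peaks there had 39 and 29 fragments, a ratio of 1.59 (0.956 to 2.66). Another, 97820154 to 97820391, was among the weakest calls of the list, with a fold of 2.42 and a −log10 q of 1.42. It had 24 Tet2+/+ fragments against 9.33 expected. Its peaks had 24 and 21 fragments, a ratio of 1.35 (0.719 to 2.55). In both, the interval of the ratio of the 2 own peaks included no difference. That ratio takes the Tet2-/- count at its own summit, while the direct call uses the Tet2-/- control's expectation. The 2 measures differ, so the ratio does not decide whether the call holds. The fourth region higher in Tet2+/+ lay outside the gene span, 27 kb upstream, at 97732384 to 97732602. It had 17 fragments where 1.70 were expected, a fold of 6.68 that 97.6% of the list did not reach, a −log10 q of 7.45 and no Tet2-/- peak.

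Between these regions, 87 kb into the gene, lay the 1 Mitf region higher in Tet2-/-. At 97847220 to 97847423 it had 33 Tet2-/- fragments (28.0 at the Tet2+/+ depth, 7.0 expected), a fold of 3.62 and a −log10 q of 3.82, and no Tet2+/+ peak overlapped it. Beside it, at 97848338 to 97848603, Tet2-/- had a further peak of 25 fragments without a partner, and at 97833819 to 97834018 one of 26. This stretch, from 50 to 100 kb into the gene, was where the lists differed most in number, with 5 Tet2+/+ and 9 Tet2-/- own peaks. All 5 Tet2+/+ peaks had a partner there. The local expectation was also the highest of the locus in Tet2-/-, a median of 5.04 fragments against 3.68 in Tet2+/+, and its part in the number of peaks was not tested. The peak of most fragments in Tet2+/+ was in the same stretch, at 97851125 to 97851637, with 46 fragments in Tet2+/+ and 45 in Tet2-/- (38.2 at the Tet2+/+ depth), a ratio of 1.21 (0.782 to 1.86).

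The strongest Tet2-/- peak of Mitf was another one, 30 kb into the gene at 97790200 to 97790648. It had 47 fragments (34.5 to 62.5), a fold of 12.7 and a −log10 q of 36.0, above 98.3% of the list. Tet2+/+ had 27 fragments there, and the ratio of Tet2+/+ to Tet2-/- was 0.677 (0.406 to 1.11), the lowest of the Mitf pairs. The second strongest Tet2-/- peak by −log10 q, at 97889571 to 97890037, had 34 fragments over 21 in Tet2+/+, a ratio of 0.728 (0.402 to 1.29). So the peak of highest −log10 q stood 102 kb into the gene in Tet2+/+ and 30 kb into it in Tet2-/-. Neither of these 2 Tet2-/- peaks was called higher in the direct comparison.

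The other Mitf pairs ran along the gene with ratios on both sides of 1. At the approximate gene start there were 13 fragments in Tet2+/+ and 15 in Tet2-/- (ratio 1.02, 0.448 to 2.30), and 18 kb into the gene 17 and 21 (0.955, 0.473 to 1.9). The pairs 46 and 70 kb in had 14 and 18 fragments and 22 and 32, with ratios of 0.917 and 0.811. The pair 77 kb in had 31 and 32 fragments (1.14), that at 110 kb 15 and 22 (0.804) and that at 161 kb 23 and 19 (1.43). None of these 7 intervals left out 1. Partners whose summits lay over 100 bp apart had 13 fragments in Tet2+/+ and 24 in Tet2-/- at 39 kb, 18 and 24 at 101 kb, 18 and 17 at 124 kb, 23 and 24 at 149 kb and 25 and 25 at 176 kb. A further Tet2-/- peak of 18 fragments at 97837363 to 97837577 overlapped the Tet2+/+ peak of the pair at 77 kb. In 1 library alone stood Tet2+/+ peaks of 16 fragments at 171 kb and 12 at 201 kb, and Tet2-/- peaks of 17 at 179 kb and 18 at 206 kb.

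**Figure D3:**
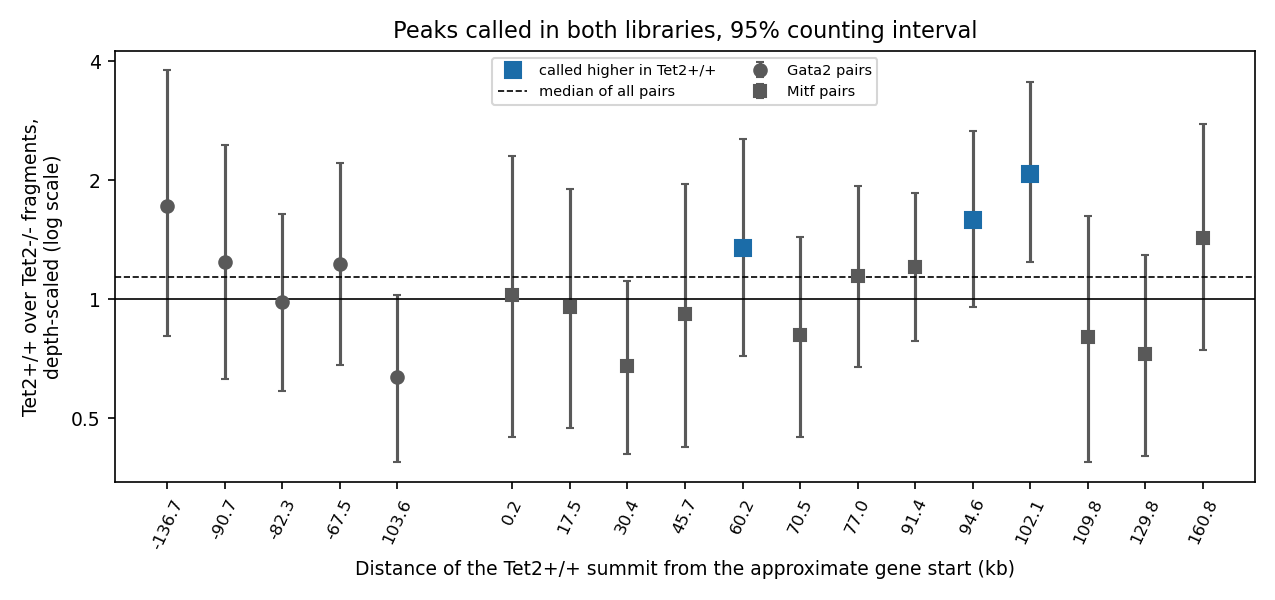
Ratio of Tet2+/+ to Tet2-/- summit fragments, scaled for depth (log scale), for the 5 Gata2 and 13 Mitf pairs of own peaks, by distance in kb from the approximate gene start. Bars are 95% counting intervals, blue marks pairs called higher in Tet2+/+ and the dashed line is the median of all pairs, 1.14. At the depth ratio used, only the pair at 102.1 kb has an interval that leaves out 1.

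Over the pairs as a whole, ratios lay on both sides of 1. The 5 Gata2 pairs had a median ratio of 1.23 and the 13 Mitf pairs of 1.02, against 1.18 for the 527 pairs of chromosome 6 and 1.14 for all 8462 pairs. The Mitf pairs ran from 0.677 to 2.08, with 7 above and 6 below 1, and the middle 50% of all pairs from 0.917 to 1.43. With so few pairs the medians cross 1 between settings: with summits within 50 bp they were 0.983 over 3 Gata2 pairs and 1.35 over 7 Mitf pairs. Among all pairs 6.74% had an interval above 1 and 1.51% below, so 1 of 13 at Mitf is near that background.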

How the data were processed

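5hmC-bearing DNA of sorted mast cells was labelled, pulled down and sequenced, 1 library per genotype. Reads were aligned with Bowtie2 and peaks called with MACS2 on mm9, per the submitters' processing notes, with versions and options not given in the sources used here. Each deposited peak carries a fold enrichment, a score, p and q (the last 2 as −log10), all made by the authors' peak caller. Fold and p together give the number of fragments at the summit, and in 100% of peaks a whole number reproduced that p to 0.001 (−log10). The ratio of the libraries' lowest expectations, 1.18, served as depth ratio; read totals are not known. Own peaks that overlapped by at least 1 bp with summits within 100 bp, each nearest to the other, were paired. Density used the stretch of chromosome 6 from its first to its last peak. Recovery, overlap and intervals were tested on simulated data. Python 3.11.15, numpy 2.4.6, pandas 2.3.3, scipy 1.17.1 and matplotlib 3.10.9 were used.

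Shares have 95% exact binomial intervals, counts exact Poisson intervals, ratios of fragments the exact binomial interval of 2 counts, and a count of 0 allows up to 3. Amplified fragments are not independent molecules, so these cover counting error only. The authors' fold and p serve to describe and rank peaks within a list. Peaks were not masked for repeated sequence. Windows and gene spans are those of the rule that chose the loci. Described one by one are all direct-comparison peaks, own peaks inside the gene spans, the 3 own peaks of highest −log10 q per locus and library, and the pairs of highest and lowest ratio; further peaks were named after their values were seen. Both loci were chosen with earlier results of these data known. Alternatives were stricter limits, other overlap rules, other reference densities and other scaling.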

Additional observations from a re-analysis of the deposited data

How the results depend on the processing

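Over 18 results and 11 other settings, 58 values were obtained again: 40 kept within the counting interval (medians: the interquartile range of the pairs; counts: 1.5 times) and 18 moved farther. Density above the chromosome 6 mean held in each setting run. Against occupied stretches of 50 kb it fell to 2.236 (Tet2+/+) and 2.193 (Tet2-/-) at Gata2 and to 2.496 and 3.021 at Mitf, as empty stretches then leave the mean. For the gene span alone it rose in Tet2-/- to 14.34 at Gata2, on 2 peaks, and 16.39 at Mitf. At −log10 q of at least 10, own peaks numbered 6 in each library at Gata2, and 7 in Tet2+/+ and 11 in Tet2-/- at Mitf. At −log10 q of at least 5, regions higher in Tet2+/+ numbered 2 at each locus and those higher in Tet2-/- 0 at each. With a fold of at least 5 they numbered 2 at Gata2 and 1 at Mitf, and 0 and 0. Fewer peaks follow from the stricter limits themselves. With the median ratio of all pairs removed, the pairs had medians of 1.077 at Gata2 and 0.898 at Mitf. The Gata2 pair 104 kb downstream and the Mitf pair 30 kb into the gene would then have intervals below 1. Their upper limits, 1.02 and 1.11, lay below the removed median of 1.14. No paired analysis was possible because only 1 library was made of each genotype. The number of fragments limits single sites. At the depth ratio used, the pairs at these loci with ratios from 0.635 to 1.72 all had intervals that included 1. That range describes these pairs and is not a detection limit.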
